A study of Canis lupus familiaris with 6 samples.

Results

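The genes described here were the abundant long noncoding RNA (lncRNA) genes of dog whole blood. They were selected on their measured level: every gene annotated as lncRNA whose FPKM (fragments scaled by gene length and library size) averaged 5 or more in the 6 dogs. Of the 7077 lncRNA genes in a table of 31512 genes, 69 met this rule. The mean of both groups together chose them, so their being abundant is no finding. The choice was not free of the comparison, since 16 of the 69 reached the limit only through the group in which they were higher and had a mean under 5 FPKM in the other. The members just inside the limit were ENSCAFG00000034030 and ENSCAFG00000042931, with means of 5.05 and 5.08 FPKM. The lncRNA genes just outside it were ENSCAFG00000039583 and ENSCAFG00000041995, with means of 4.91 and 4.82 FPKM. Among the other lncRNA genes, 128 had a mean of at least 1 FPKM, and 5852 of the 7077 were listed at 0 in all dogs.

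The animals were adult Beagles aged 1.5 years, all healthy and on the same maintenance food. Each of the 3 control dogs also received 30 g of an unsupplemented snack. The snack of the 3 CPP-Se dogs, again 30 g, contained 0.03% CPP-Se, in which selenium is chelated by phosphopeptides cut from casein, the main milk protein. Whole blood was taken on day 30, and 1 library per dog was made from RNA selected for poly(A) tails. The dogs sequenced were 6 of the 12 in the feeding study. The comparison of CPP-Se with control asks which genes differ in blood RNA after the supplement.

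Long noncoding RNAs are transcripts, longer than the small regulatory RNAs, that carry no long reading frame known to be translated. Some act in the nucleus on chromatin or on the gene beside them, others host small nucleolar RNAs or microRNAs in their introns, and for most no role is known. In a draft annotation, the lncRNA class also takes in transcripts from the unannotated end of a neighbouring protein-coding gene, retired copies of such genes, and coding genes whose reading frame is broken in the assembly.

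Reads on genes numbered from 6598173 to 8067034 per dog. CPP-Se replicate 2 stood apart: its 8 hemoglobin genes held 36.6% of the reads, against 48.7% to 55.9% in the other dogs, and the library size implied by its FPKM was 1.65 times its reads on genes, against 0.882 to 1.05 in the others. Leaving out this or another dog moved some log2 fold changes printed here for lncRNA genes, and over 0.3 in size, by more than 1.5 times. For these, the value without that dog, or the range over the dogs left out, is given beside them or with the processing. The label whole blood was met by the markers: genes of red cells, neutrophils, monocytes, T cells, B cells, cytotoxic cells and platelets were all measured, although the symbols CD14, PF4 and NKG7 were not in the table and FCN1, a monocyte gene, was listed at 0.

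Most of these lncRNA genes were only moderately expressed. Means of at least 100 FPKM were found for 3 of the 69, means from 20 to 100 for 16, from 10 to 20 for 18 and from 5 to 10 for 32. All 69 passed the limit of 1 FPKM set for testing, none was at 0 in any dog, and 41 had at least 5 FPKM in each dog. Of the 16 genes that passed through 1 group, 8 had a control mean under 5 FPKM and 8 a CPP-Se mean, which leaves 53 with at least 5 FPKM in both groups. The median gene rested on 112 reads per dog, and 9 genes on fewer than 50. Between the highest and the lowest dog the median gene varied 2.68 times, from 1.31 times in the most even gene to 17.4 times in the least even one. The median SD between dogs of a group was 0.41 on the log2 scale, against 0.31 over all genes tested. Together they made up 1.13%, 1.31% and 0.974% of the summed FPKM of the control dogs, against 1.40%, 1.09% and 2.08% for the CPP-Se dogs.

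**Figure D1:**
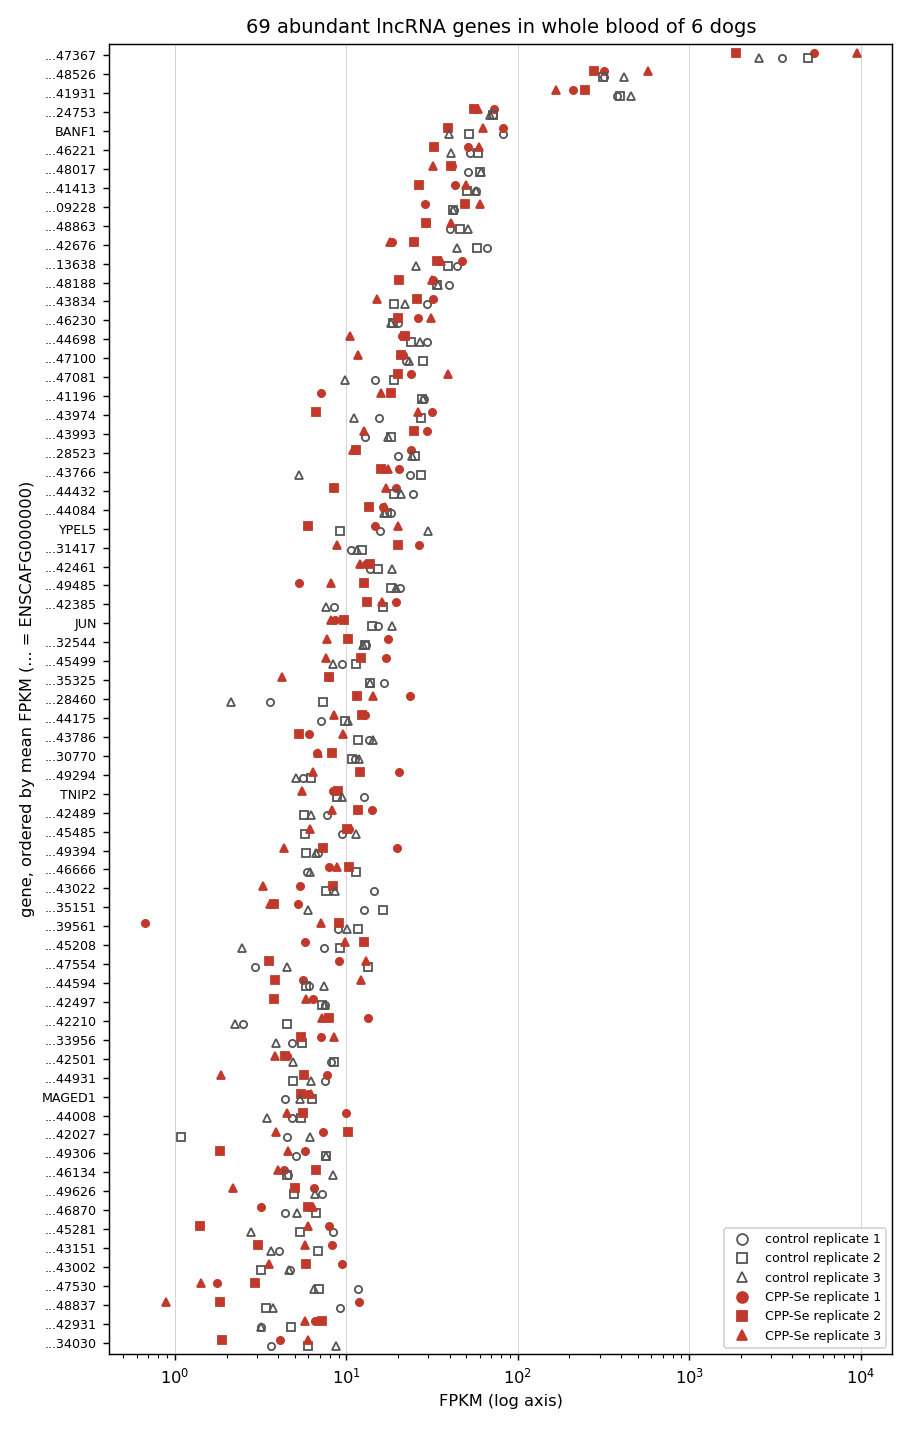
FPKM (log axis) of the 69 abundant lncRNA genes, 1 row per gene in order of the mean and 1 point per dog (open grey: control, filled red: CPP-Se; circle, square and triangle: replicates 1, 2 and 3). One gene lies between 1879 and 9518 FPKM, a pair between 167 and 576, and the other 66 have means under 100 FPKM.

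The most abundant of them was ENSCAFG00000047367, which alone held 56.9% to 84.7% of the FPKM of all 69 in each dog. It lies on the unplaced scaffold AAEX03025644.1 (203 to 2449, minus strand), where no other gene is annotated, and its protein description, ART2, is that of an uncharacterised reading frame named for being antisense to ribosomal RNA. It measured 3484, 4918 and 2544 FPKM in control replicates 1, 2 and 3, and 5322, 1879 and 9518 FPKM in CPP-Se replicates 1, 2 and 3. The lowest and the highest dog were both CPP-Se dogs, so the groups overlapped, and the log2 fold change of 0.38 (SE 0.59) had an adjusted p of 0.800 (limma with Benjamini-Hochberg adjustment). Without CPP-Se replicate 3 the log2 fold change was -0.15, and without CPP-Se replicate 2 it was 1.02 (adjusted p = 0.282, limma).

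The order of the dogs in this gene was nearly that in ENSCAFG00000028987, a gene annotated as ribosomal RNA that is named outside the rule for named genes. That gene measured 1284, 1889.9 and 855 FPKM in the control dogs and 1936, 883 and 6338 FPKM in the CPP-Se dogs (log2 fold change 0.79, SE 0.68, adjusted p = 0.610 by limma). In both genes CPP-Se replicate 3 was highest, followed by CPP-Se replicate 1 and control replicate 2. Ribosomal RNA has no poly(A) tail and is mostly lost in poly(A) selection, so what remains depends on the library. The part of leftover ribosomal RNA in the values of ENSCAFG00000047367 was not tested. Without this gene, the FPKM of the remaining 68 genes summed to 1872, 1869 and 1926 for the control dogs, against 1671, 1422 and 1725 for the CPP-Se dogs. Relative to the summed FPKM of each dog this was 0.394%, 0.361% and 0.420% against 0.335%, 0.469% and 0.319%, where CPP-Se replicate 2 was the highest, so the order of the groups depended on the scaling. With ENSCAFG00000041931, the third most abundant gene, left out as well, the other 67 summed to 1494, 1472 and 1465 FPKM for the control dogs. For the CPP-Se dogs the sums were 1462, 1174 and 1557 FPKM, so the groups overlapped.

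**Figure D2:**
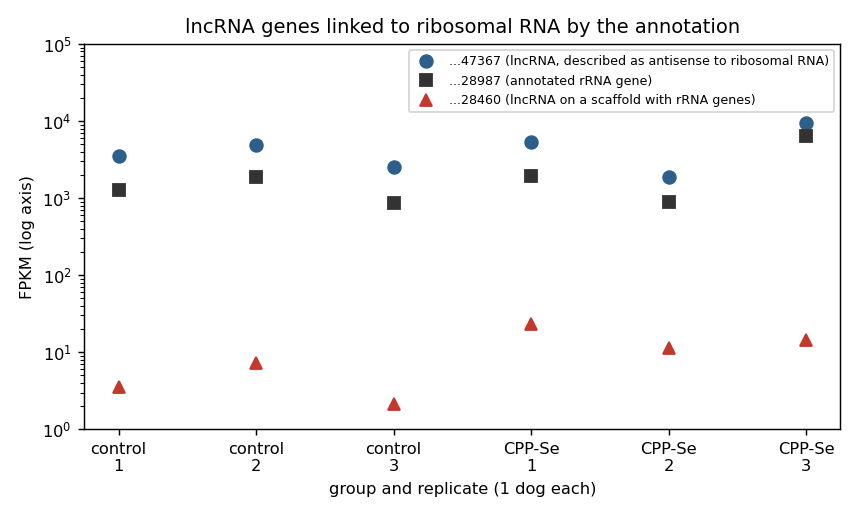
FPKM (log axis) in each of the 6 dogs of ENSCAFG00000047367 (blue circles), the annotated ribosomal RNA gene ENSCAFG00000028987 (black squares) and ENSCAFG00000028460, an lncRNA gene on a scaffold with ribosomal RNA genes (red triangles). The first 2 peak together in CPP-Se replicate 3, at 9518 and 6338 FPKM, whereas ENSCAFG00000028460 is highest in CPP-Se replicate 1, at 23.5 FPKM.

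The second gene, ENSCAFG00000048526 (chromosome 6, 59236547 to 59246030, plus strand), carries the Pfam domain of the C-terminal part of guanylate-binding proteins, GTPases induced by interferon. It measured 319, 316 and 416 FPKM in the control dogs and 320.0, 278 and 576 FPKM in the CPP-Se dogs, and the groups overlapped (log2 fold change 0.10, SE 0.31, adjusted p = 0.910, limma). Its nearest protein-coding gene, GBP1, lay 27562 bases away and had a mean of only 8.69 FPKM. Leaving out CPP-Se replicate 3 turned the log2 fold change of ENSCAFG00000048526 to -0.22.

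ENSCAFG00000041931 was the third gene (chromosome 11, 73717864 to 73718568, minus strand), and has neither symbol nor protein description. The control dogs measured 378, 396 and 460 FPKM and the CPP-Se dogs 209, 248 and 167 FPKM. Every CPP-Se dog thus lay below every control dog and the means were 412 ± 43.3 FPKM (SD, n = 3) in the control dogs and 208 ± 40.2 FPKM (SD, n = 3) in the CPP-Se dogs. The log2 fold change was -0.99 (SE 0.23), with an adjusted p of 0.144 (limma), so it did not pass the test. It lies on the same strand 1205 bases beyond the 3′ end of a protein-coding gene described as MEGF9, a membrane protein with EGF-like domains, which was at a similar level and lower by a similar amount (mean 290.3 FPKM, log2 fold change -0.94, SE 0.21, adjusted p = 0.144, limma).

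The remaining genes among the 10 most abundant had means from 39.4 to 66.6 FPKM. The most even of all 69 was ENSCAFG00000024753 on chromosome 35, described as TRIM26, a ubiquitin ligase of the tripartite motif family, with 71.4, 72.0 and 68.5 FPKM in the control dogs and 73.1, 55.7 and 58.9 FPKM in the CPP-Se dogs. ENSCAFG00000013083 carries the symbol BANF1, a protein that binds DNA at the nuclear envelope, and measured 82.3, 52.1 and 39.4 FPKM against 81.6, 39.3 and 62.6 FPKM. ENSCAFG00000009228 on chromosome 27, described as PCED1B, was even in the control dogs (42.2, 41.9 and 41.8 FPKM) but spread over 28.6, 49.3 and 59.8 FPKM in the CPP-Se dogs. In these 3 genes the groups overlapped, with log2 fold changes of -0.18, 0.08 and 0.06 and adjusted p of 0.669, 0.934 and 0.934 (limma).

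The other 4 of the 10 sit at the end of a well-expressed protein-coding gene, on the opposite strand, with the 3′ ends facing each other. ENSCAFG00000048017 (chromosome 31, 37707927 to 37708937), 160 bases from PDXK, the kinase that activates vitamin B6, measured 51.3, 60.6 and 61.2 FPKM in the control dogs and 41.3, 41.0 and 31.9 FPKM in the CPP-Se dogs. ENSCAFG00000041413 (chromosome 18, 32728984 to 32737698), 209 bases from CD44, the hyaluronan receptor of leukocytes, measured 57.1, 50.5 and 56.8 FPKM against 43.0, 26.5 and 49.7 FPKM. Both lay lower in every CPP-Se dog than in any control dog, as did PDXK and CD44 themselves. Log2 fold changes were -0.59 (SE 0.19) beside PDXK at -0.60, and -0.50 (SE 0.25) beside CD44 at -0.68, with adjusted p of 0.212 and 0.382 for the lncRNA genes (limma). Without CPP-Se replicate 2 the value of ENSCAFG00000041413 was -0.24. ENSCAFG00000048863, 1316 bases from SKAP2, an adaptor of SRC family kinases, measured 40.4, 45.7 and 51.0 FPKM against 29.3, 29.2 and 40.6 FPKM. Its groups overlapped narrowly, through CPP-Se replicate 3. The log2 fold change was -0.47 (SE 0.20, adjusted p = 0.315, limma), beside -0.65 for SKAP2. ENSCAFG00000046221, 20 bases from TXN2, the mitochondrial thioredoxin, overlapped between the groups, with a log2 fold change of -0.11 that was 0.038 after scaling to a common sum of FPKM and 0.14 without CPP-Se replicate 2.

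The annotation placed many of the 69 genes close to protein-coding genes or described them as one, and the shares below are a description with no test. A symbol, a Swiss-Prot protein name or a Pfam domain was given for 19 of the 69 (27.5%), against 18.8% of the 128 other lncRNA genes with at least 1 FPKM and 4.28% of all 7008 other lncRNA genes. The 5 symbols were BANF1, YPEL5, JUN, TNIP2 and MAGED1, and none of 41 symbols of well-known lncRNAs, such as MALAT1, NEAT1 and XIST, was used for any gene of the table. Only symbols were matched, so a well-known lncRNA listed without its symbol would have been missed. Of the 18 genes with a Swiss-Prot name, 15 had a name that no protein-coding gene of the table carried, JUN and NKG7 among them. These rows were not always the only measure of the gene: a pseudogene row of the same description overlaps the member described as transcription intermediary factor 1-beta, and the one described as C14orf80 lies 386 bases from the protein-coding TEDC1, described as its homolog. No gene annotated as lncRNA shared a base of its span with a protein-coding gene, but 30 of the 66 members with a protein-coding gene on their chromosome or scaffold (45.5%) lay within 2 kb of one. The share was 37.3% in the other lncRNA genes with at least 1 FPKM and 10.2% in all others. The median distance was 4558 bases, 43 were within 10 kb, and 4 were over 100 kb away.

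The position relative to the nearest protein-coding gene fell into 4 classes. In 25 of the 66 genes the strands were opposite with the 3′ ends facing, in 13 opposite with the starts facing, in 14 the lncRNA gene lay on the same strand before the 5′ end, and in 14 on the same strand beyond the 3′ end. The library kit named in the labels does not mark strand, and the use of strand in counting is not given in the sources used here, so reads that run past an annotated end cannot be assigned to either gene. The genes were spread over 31 chromosomes, with 5 on chromosome 18 and 4 each on chromosomes 1, 13 and 28, and 4 were on unplaced scaffolds. Gene lengths were 240 to 9759 bases, with a median of 1315.

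Compared with the control group, none of the 69 lncRNA genes was called in the CPP-Se group (limma, Benjamini-Hochberg adjustment over the 9847 genes tested, with limits of 0.05 on the adjusted p and 1.5 on the fold change). Calls were rare in the whole table too, at 0.0305% of the genes tested and 0.02% of those with a mean of 5 FPKM or more. The lowest adjusted p of a member was 0.138. By limma, 18 of the 69 (26.1%) had an unadjusted p under 0.05, where 16% of all genes tested and 20.6% of those with a mean of at least 5 FPKM had one. In 6 of the 18 the CPP-Se dogs were higher (8.7%, against 6.87% of all genes tested and 7.77% of those with at least 5 FPKM), and in 12 lower (17.4%, against 9.1% and 12.8%). Of the 53 genes with at least 5 FPKM in both groups, 12 (22.6%) had an unadjusted p under 0.05, against 18.7% of all genes tested with that level in both groups, with 3 higher (5.66%, against 6.45%) and 9 lower (17%, against 12.3%). These shares were given no test, and nothing particular to lncRNA genes is read from them. The median log2 fold change was -0.15, against -0.05 for all genes with at least 5 FPKM.

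In 25 genes (36.2%) the groups did not overlap, with all 3 dogs of one above those of the other, against 23% of all genes tested and 27.7% of those with at least 5 FPKM. The CPP-Se dogs were the higher ones in 7 genes (10.1%, against 10.4% and 10.7%) and the lower ones in 18 (26.1%, against 12.6% and 17%). Of the 53 genes with at least 5 FPKM in both groups it was 19 (35.8%, against 26.1% of all genes with that level), 4 higher (7.55%, against 9.48%) and 15 lower (28.3%, against 16.6%). The split by direction depended on the scaling between dogs. After scaling to a common sum of FPKM, which moved the median log2 fold change of all genes tested to 0.13, the groups were apart in 6 genes with CPP-Se higher and 7 lower (8.7% and 10.1%, against 10.6% and 3.15% of all genes tested), and the unadjusted p was under 0.05 in 7 higher and 8 lower (10.1% and 11.6%, against 6.67% and 2.68%). With a common sum that leaves out hemoglobin genes, which moved that median to 0.12, the numbers were 8 higher and 12 lower apart (11.6% and 17.4%, against 13.4% and 4.84%), and 9 higher and 9 lower under 0.05 (13% each, against 9.04% and 3.89%). The median of the 69 genes lay below that of all genes tested by 0.13 to 0.15 in each of these scalings. Without CPP-Se replicate 2, the unadjusted p was under 0.05 in 8 higher and 14 lower genes (11.6% and 20.3%, against 6.71% and 8.88% of all genes tested).

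**Figure D3:**
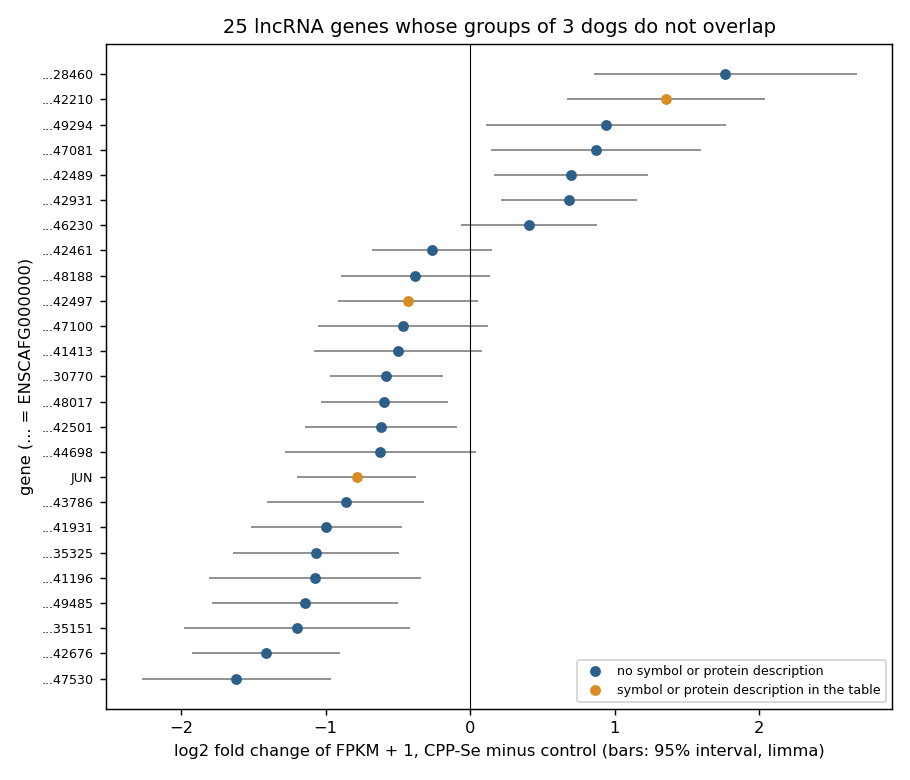
Log2 fold change (FPKM + 1, CPP-Se minus control) of the 25 lncRNA genes whose groups of 3 dogs do not overlap, with 95% intervals from limma (bars); orange marks genes with a symbol or protein description. The estimates run from -1.62 to 1.76, 18 below and 7 above 0. The intervals of the smallest estimates in size, up to ENSCAFG00000041413 at -0.50, include 0, as does that of ENSCAFG00000044698 at -0.62.

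Among the genes that were lower in CPP-Se dogs, several stood beside protein-coding genes that were lower as well. The largest difference was in ENSCAFG00000047530 (chromosome 17, 24899899 to 24901164, plus strand), which ends 283 bases from XDH, the xanthine oxidase gene, with the 3′ ends facing. It measured 11.7, 6.89 and 6.43 FPKM in the control dogs and 1.75, 2.91 and 1.41 FPKM in the CPP-Se dogs. No CPP-Se dog reached the lowest control dog, and the log2 fold change was -1.62 (SE 0.28, adjusted p = 0.138, limma), beside -1.47 (SE 0.38) for XDH. Depth was low here, with a mean of 45.3 reads per dog, and the gene passed the limit of 5 FPKM only through the control dogs.

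ENSCAFG00000042676 (chromosome 13, 62534590 to 62643441, plus strand) lies beside a cluster of CXC chemokine genes. It measured 66.0, 57.8 and 44.5 FPKM in the control dogs and 18.4, 24.8 and 17.9 FPKM in the CPP-Se dogs, so that the lowest control dog was well above the highest CPP-Se dog. The log2 fold change was -1.41 (SE 0.22, adjusted p = 0.138, limma) at a mean of 740.3 reads per dog. The nearest protein-coding gene, PPBP, a chemokine of platelets 6063 bases away, differed little (log2 fold change 0.18, SE 0.55). Within 200 kb there were 6 protein-coding genes, of which 3 were tested. The other pair, named after their values were seen, were the neutrophil attractants CXCL6 and CXCL8, 19372 and 96236 bases away. CXCL6 measured 68.7, 62.6 and 129.5 FPKM against 26.1, 18.4 and 50.2 FPKM, and CXCL8 5.86, 3.98 and 5.89 FPKM against 0.991, 3.15 and 0.718 FPKM. Their log2 fold changes were -1.48 (SE 0.41) and -1.35 (SE 0.35), with adjusted p of 0.183 and 0.173 (limma).

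ENSCAFG00000041196 (chromosome 7, 18021124 to 18024340), 238 bases from NIBAN1, a gene of the cellular stress response, measured 28.3, 27.7 and 28.1 FPKM in the control dogs, a tight group, and 7.13, 18.2 and 15.8 FPKM in the CPP-Se dogs. The log2 fold change was -1.07 (SE 0.32, adjusted p = 0.192, limma) beside -1.002 for NIBAN1, and was -0.69 without CPP-Se replicate 1. ENSCAFG00000049485 on chromosome 16 measured 20.5, 18.3 and 19.4 FPKM against 5.32, 12.6 and 8.15 FPKM (log2 fold change -1.14, SE 0.28, adjusted p = 0.161, limma). Its nearest gene AGK, a mitochondrial lipid kinase 1314 bases away, had a log2 fold change of 0.24. On the other side lies DENND11, 2325 bases away and named after its values were seen. DENND11 measured 19.5, 17.1 and 14.4 FPKM against 5.64, 10.1 and 5.21 FPKM (log2 fold change -1.22, SE 0.26, adjusted p = 0.138, limma).

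Beside transcription factors of the KLF family lower values were found in both partners. ENSCAFG00000043786, on the same strand 527 bases beyond the 3′ end of KLF6 on chromosome 2, measured 13.6, 11.6 and 14.2 FPKM in the control dogs and 6.04, 5.26 and 9.61 FPKM in the CPP-Se dogs (log2 fold change -0.86, SE 0.23, adjusted p = 0.183, limma), beside -0.73 for KLF6. ENSCAFG00000044698, on the same strand 1175 bases beyond the 3′ end of a gene described as KLF13 on chromosome 3, measured 29.7, 23.7 and 26.9 FPKM against 21.002, 21.9 and 10.5 FPKM (log2 fold change -0.62, SE 0.28, adjusted p = 0.340, limma), beside -0.71 for that gene. In both the CPP-Se dogs lay below all control dogs, narrowly so in the second, whose log2 fold change was -0.30 without CPP-Se replicate 3.

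JUN, the AP-1 subunit and immediate early gene, is annotated as lncRNA in this table (ENSCAFG00000018897, chromosome 5, 50945210 to 51012677) although it carries the Pfam domain of the JUN family. It measured 15.3, 14.2 and 18.4 FPKM in the control dogs and 8.63, 9.66 and 8.12 FPKM in the CPP-Se dogs. The groups were apart, with means of 16.0 ± 2.20 and 8.80 ± 0.788 FPKM (SD, n = 3 each) and a log2 fold change of -0.79 (SE 0.18, adjusted p = 0.144, limma). Its nearest protein-coding gene MYSM1, a histone deubiquitinase 24197 bases away, had a mean of 1.37 FPKM and a log2 fold change of -0.30.

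The remaining pair of the 10 most lower genes had neighbours that differed little. ENSCAFG00000035151 on chromosome 28 measured 12.6, 16.4 and 5.97 FPKM in the control dogs and 5.21, 3.80 and 3.60 FPKM in the CPP-Se dogs (log2 fold change -1.20, SE 0.34, adjusted p = 0.185, limma), with the splicing factor gene HNRNPF 37900 bases away at 0.09, and it too passed the limit of 5 FPKM only through the control dogs. ENSCAFG00000035325 on chromosome 11 measured 16.5, 13.8 and 13.7 FPKM against 7.90, 7.87 and 4.24 FPKM (log2 fold change -1.07, SE 0.25, adjusted p = 0.146, limma), with HNRNPAB 957 bases away at -0.18. A gene outside the rule for named genes, ENSCAFG00000030770 on chromosome 7, had the smallest spread between dogs of a group (11.3, 10.8 and 11.8 FPKM against 6.72, 8.25 and 6.80 FPKM), yet its log2 fold change of -0.58 (SE 0.17) had an adjusted p of 0.188 (limma).

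Higher values in all CPP-Se dogs were found in 7 genes, of which ENSCAFG00000028460, ENSCAFG00000042210 and ENSCAFG00000042931 had control means of 4.35, 3.08 and 3.68 FPKM and passed the limit of 5 FPKM only through the CPP-Se dogs. The largest difference was in ENSCAFG00000028460 on the unplaced scaffold JH373485.1 (23482 to 27183, minus strand), which measured 3.58, 7.34 and 2.13 FPKM in the control dogs and 23.5, 11.5 and 14.3 FPKM in the CPP-Se dogs. The log2 fold change was 1.76 (SE 0.39), with an adjusted p of 0.143 (limma) that moved between 0.0537 and 0.455 over the other settings tried. This scaffold holds ribosomal RNA genes, one of which overlaps the lncRNA gene and was listed at 0 in all dogs. Unlike ENSCAFG00000047367, the gene did not peak in CPP-Se replicate 3, and the part of ribosomal RNA in its values was not tested.

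The second largest was ENSCAFG00000042210 (chromosome 1, 105607528 to 105609615), described as NKG7, a granule protein of natural killer and cytotoxic T cells, and no other gene of the table carried that name. It measured 2.48, 4.53 and 2.23 FPKM in the control dogs and 13.3, 7.92 and 7.17 FPKM in the CPP-Se dogs. All CPP-Se dogs were above all control dogs, with a log2 fold change of 1.36 (SE 0.30, adjusted p = 0.143, limma). ETFB, an electron carrier of mitochondrial fat oxidation 896 bases away, had one of 0.58 (SE 0.21). Other genes of cytotoxic cells are given as a description, from a list chosen with earlier results of these data known. All 9 tested of the 11 listed had a log2 fold change above 0, as had 4884 of the 9847 genes tested. The median was 0.80, and 4 of the 9 had an unadjusted p under 0.05 (limma), as had 6.87% of all genes tested in that direction. In CD8A, KLRD1, GZMA, GZMB and EOMES the groups overlapped. The summed level of the list was 40.6 to 65.2 FPKM in the control dogs and 81.5 to 124 FPKM in the CPP-Se dogs.

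ENSCAFG00000049294, on the unplaced scaffold AAEX03023460.1 (9874 to 11251, minus strand), measured 5.55, 6.23 and 5.06 FPKM in the control dogs and 20.2, 12.1 and 6.34 FPKM in the CPP-Se dogs (log2 fold change 0.94, SE 0.36, adjusted p = 0.269, limma, and 0.57 without CPP-Se replicate 1). The CPP-Se dogs spread widely, and the lowest of them was only just above the highest control dog. On the same scaffold and strand lies a gene found by the authors' assembly and described as MYO1G, the myosin of lymphocyte membranes, named after its values were seen, with 36.0, 34.0 and 35.7 FPKM against 79.8, 54.4 and 51.5 FPKM (log2 fold change 0.77, SE 0.21, adjusted p = 0.183, limma). ENSCAFG00000047081, which faces the 3′ end of ABLIM1, an actin-binding protein, at 1513 bases on chromosome 28, measured 14.7, 19.001 and 9.87 FPKM against 23.9, 19.9 and 39.1 FPKM. Its log2 fold change was 0.87 (SE 0.31, adjusted p = 0.254, limma), with 0.38 for ABLIM1.

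The last 3 of these genes differed by less. ENSCAFG00000042489, 21 bases from PRR5, a subunit of the mTORC2 kinase complex, measured 7.69, 5.66 and 6.19 FPKM in the control dogs and 14.1, 11.8 and 8.24 FPKM in the CPP-Se dogs, a log2 fold change of 0.70 (SE 0.23, adjusted p = 0.222, limma) beside 0.64 for PRR5. ENSCAFG00000042931 on chromosome 8 measured 3.17, 4.72 and 3.15 FPKM against 6.52, 7.21 and 5.70 FPKM (log2 fold change 0.69, SE 0.20, adjusted p = 0.192, limma). ENSCAFG00000046230 measured 20.03, 18.6 and 18.1 FPKM against 26.2, 20.1 and 31.3 FPKM, and here the lowest CPP-Se dog was hardly above the highest control dog (log2 fold change 0.41, SE 0.20, adjusted p = 0.375, limma, and 0.26 without CPP-Se replicate 3).

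**Figure D4:**
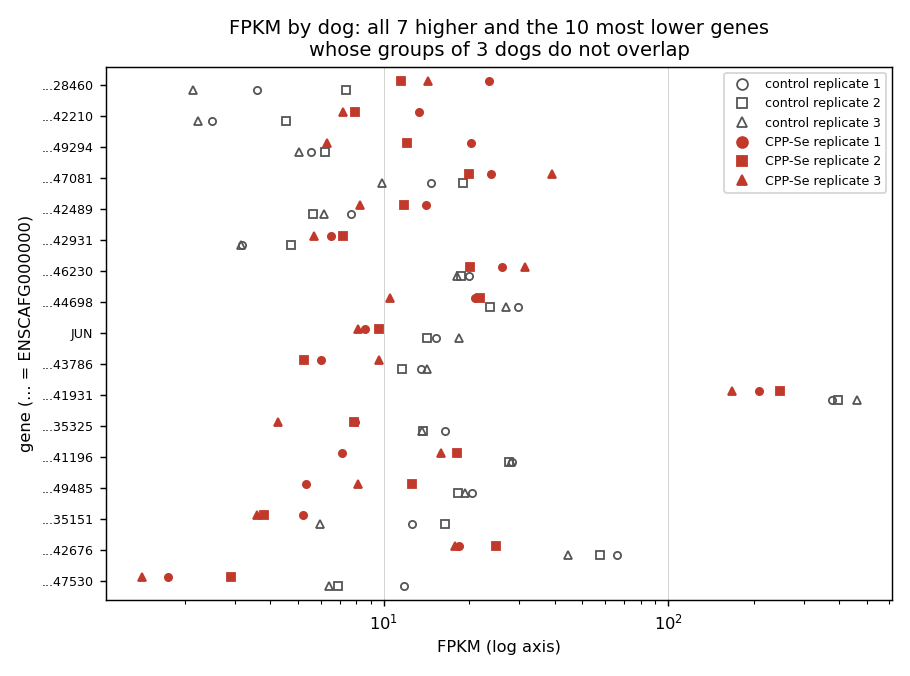
FPKM (log axis) in each dog of the 7 lncRNA genes that were higher in every CPP-Se dog and the 10 with the largest lower values, 1 row per gene (open grey: control, filled red: CPP-Se; circle, square and triangle: replicates 1, 2 and 3). In the top rows the red points lie to the right of the grey ones and in the lower rows to the left, with the widest gap in ENSCAFG00000047530, at 6.43 to 11.7 FPKM in control and 1.41 to 2.91 FPKM in CPP-Se dogs.

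Genes with and without a description were also counted separately. Among the 19 with a symbol or protein description, 2 had an unadjusted p under 0.05 (JUN lower and the NKG7 gene higher), and among the 50 without one, 16 (5 higher and 11 lower). These were 10.5% and 32%, against 16% of all genes tested and 20.6% of those with a mean of at least 5 FPKM. The difference between these shares was not tested. Of the described genes outside the rule for named genes, ENSCAFG00000044084, described as the selenophosphate synthetase SEPHS2 that makes the selenium donor for selenoproteins, was chosen after its values were seen. It was among the most even, with 18.3, 17.1 and 16.6 FPKM in the control dogs and 16.3, 13.6 and 16.8 FPKM in the CPP-Se dogs (log2 fold change -0.15, SE 0.17, 95% interval -0.54 to 0.24). No protein-coding gene of the table carried its name.

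The nearest protein-coding gene was itself tested in 53 of the 66 cases, over 52 genes, since one pair of lncRNA genes shares its neighbour. Of these 52 genes, none was called by limma, and 17 had an unadjusted p under 0.05, of which 4 were higher and 13 lower. That is 32.7%, with 7.69% higher and 25% lower, where all genes tested had 16%, 6.87% and 9.1% and those with a mean of at least 5 FPKM, as 43 of the 52 had, 20.6%, 7.77% and 12.8%. Without control replicate 1 or without control replicate 3 the number was 11 (21.2%, against 9.86% and 11.5% of all genes tested), and after scaling to a common sum 7 (13.5%, against 9.35%). Lower log2 fold changes of both were found in 22 pairs and higher ones of both in 13, and the signs differed in 18. Within 2 kb the signs were alike in 23 of 30 pairs (12 lower, 11 higher), and farther away in 12 of 23. With a common sum of FPKM the pairs were 18 both lower, 16 both higher and 19 of opposite sign. Of the 18 lncRNA genes that were lower without overlap, 13 had a neighbour with a log2 fold change below 0, as had 28 of the 52 neighbours and 4963 of the 9847 genes tested. A pair shares its libraries, and within 2 kb may share reads, so these counts describe the pairs and were given no test.

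**Figure D5:**
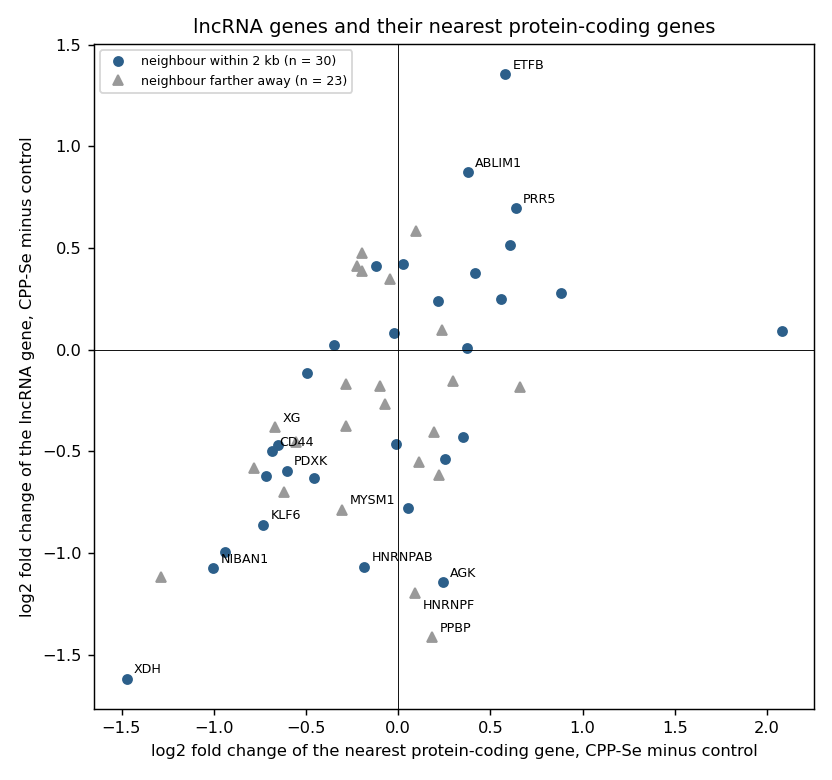
Log2 fold change (FPKM + 1, CPP-Se minus control) of each lncRNA gene (vertical axis) against that of its nearest protein-coding gene (horizontal axis), for the 53 pairs in which both were tested; blue circles are pairs within 2 kb and grey triangles pairs farther apart, with some neighbours named. Most of the blue circles lie in the lower left and upper right fields, and on the horizontal axis they run from -1.47 (XDH) to 2.08.

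Members that overlap other annotated genes numbered 16. The following were chosen for their annotation, outside the rule for named genes. ENSCAFG00000043834 (chromosome 20, 48607346 to 48621527, plus strand) spans the microRNA genes of miR-23a, miR-27a and miR-24-2 on its strand, a cluster abundant in blood cells. It measured 29.4, 19.1 and 21.9 FPKM in the control dogs and 32.0, 25.7 and 15.1 FPKM in the CPP-Se dogs, with full overlap (log2 fold change 0.01, SE 0.30, 95% interval -0.68 to 0.70), whereas the microRNA genes were listed at 0. ENSCAFG00000044008 (chromosome 24, 35956372 to 35960473) spans the small nucleolar RNA genes SNORD12, SNORD12B and SNORD12C and measured 4.80, 5.47 and 3.42 FPKM against 9.91, 5.55 and 4.49 FPKM (log2 fold change 0.41, SE 0.29, from 0.13 without CPP-Se replicate 1 to 0.62 without CPP-Se replicate 3), and passed the limit of 5 FPKM only through the CPP-Se dogs. One pair of members overlaps on opposite strands of chromosome 37 and shares the description of sphingosine-1-phosphate phosphatase 2, and another on chromosome 27 holds the PCED1B gene and ENSCAFG00000046870. The values within each pair are uncertain, since reads of the 2 strands cannot be told apart. Without the 16 genes, 15 of the other 53 had an unadjusted p under 0.05 (28.3%, against 16% of all genes tested and 20.6% of those with a mean of at least 5 FPKM, limma).

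The widest range over the dogs was that of ENSCAFG00000039561 on chromosome 7, named after its values were seen. It measured 8.98, 11.6 and 10.1 FPKM in the control dogs but 0.668, 9.09 and 7.10 FPKM in the CPP-Se dogs, so that CPP-Se replicate 1 alone was far below. Its log2 fold change of -1.12 had an SE of 0.61 and an adjusted p of 0.418 (limma), and was -0.31 without that dog. ENSCAFG00000048837, with a mean of 13.5 reads per dog, ran from 0.886 to 11.9 FPKM within the CPP-Se group alone. Over all 69 genes, the lowest of the 6 dogs was CPP-Se replicate 3 in 24 genes and CPP-Se replicate 2 in 19, and the highest was CPP-Se replicate 1 in 20.

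Marker genes of blood cell types were also compared between the groups, and in bulk blood fewer cells of a type and less RNA per cell cannot be told apart. All 8 monocyte markers tested of 10 listed had a log2 fold change below 0, with a median of -0.93 and a summed level of 599 to 835 FPKM in the control dogs and 261 to 354 FPKM in the CPP-Se dogs. Among 7 neutrophil markers tested of 11, 5 had a log2 fold change below 0 and the median was -0.56, with sums of 2219.7 to 2983 and 1732 to 2234 FPKM. MMP9, a granule protease on that list, had 96.3, 68.3 and 86.1 FPKM in the control dogs and 729, 23.7 and 540.0 FPKM in the CPP-Se dogs (log2 fold change 1.35, SE 1.14). All 12 T cell markers had a log2 fold change above 0, with a median of 0.81 and sums of 125 to 239 and 281 to 358 FPKM. In B cells it was 8 of 9 with a median of 0.62, with sums of 282 to 404 and 429.5 to 471 FPKM. The list of mast cells and eosinophils had the largest median, 1.37, with 3 of 4 markers tested of 8 above 0, at sums of only 2.96 to 7.57 and 6.05 to 30.4 FPKM that overlapped through CPP-Se replicate 2. Of 5 platelet markers tested of 9, 2 had a log2 fold change above 0, with a median of -0.16. Of 11 red cell markers it was 6, with a median of 0.31. The summed levels of both lists overlapped between the groups. Over all 9847 genes tested, 4884 had a log2 fold change above 0 and 4963 one below. None of the markers was called. The signs of the list medians were the same under each scaling, although the platelet median was only -0.013 with a common sum of FPKM. The part of cell composition in the lower values beside XDH, the chemokine, KLF and CD44 genes, or in the higher values of the NKG7 gene, was not tested.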

How the data were processed

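Whole blood RNA of 3 control and 3 CPP-Se dogs was compared, with 1 library per dog, grouped by the names in the labels. The authors selected poly(A) RNA and made paired-end libraries with NEBNext Ultra reagents. Per the labels, the submitters' processing notes name CASAVA 2.19, fastp 0.19.7, HISAT2 2.0.5 and featureCounts 1.5.0-p3. The genome and annotation were those of Ensembl release 100, and gene positions are those of the deposited table. The deposited values are FPKM, which the authors computed from gene length and the reads on each gene. The library size behind them is not given in the sources used here.

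The product of FPKM and gene length was a whole multiple of a unit inferred for each library, the worth of 1 read, for 100% of values (tolerance 0.01 reads), so that reads could be recovered. They ranged from 6598173 to 8067034 per dog, and with 3 dogs per group they limit the precision, more so for genes with few reads. Since the deposited values are FPKM, the study's count test was not used as the main test. Instead, log2(FPKM + 1) was tested for the 9847 genes that averaged 1 FPKM or more, with limma 3.58.1 in R 4.3.3 (lmFit, eBayes with an intensity trend, two-sided, Benjamini-Hochberg adjustment over these genes). The pseudocount lowers the fold change of genes with few FPKM. Calls had to pass the limits of the study's methods, 0.05 on the adjusted p and 1.5 on the fold change. SE and 95% intervals belong to the log2 fold change and come from this model. An exact permutation test of 3 dogs against 3 cannot give a two-sided p under 0.1 and was not used. The script was tested on simulated data. Tables and figures were made in Python 3.11.15 with pandas 2.3.3 and matplotlib 3.10.9.

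The nearest protein-coding gene was that with the smallest gap between the annotated spans. Genes were named if they were among the 10 with the highest mean, among the 10 largest differences in each direction without overlap of the groups, among the 5 most abundant with a symbol or description, just inside or outside the limit of 5 FPKM, or the nearest protein-coding gene of one of these. Genes outside this rule, such as cell markers, the ribosomal RNA gene and the genes described as MYO1G and TEDC1, were named for their annotation or after their values were seen. The members and all lists, the markers of cell types included, were chosen with earlier results of these data known. Alternatives were another pseudocount, other limits on FPKM, other scalings, other settings of eBayes, limma-voom on recovered reads, a block for the replicate number, other definitions of the members, and each dog left out in turn. The scaling without hemoglobin genes, the members that overlap no other gene and those with 5 FPKM in both groups were added after seeing the data. Sequences of these genes were not used here.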

Additional observations from a re-analysis of the deposited data

How the results depend on the processing

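No lncRNA gene of the 69 was called under any of the settings tried (lowest adjusted p = 0.0537, limma, with a common sum of FPKM). The number of genes called in the whole table, 3, was 0 with a pseudocount of 0.1 or with no filter on FPKM, 1 with a filter of 5 FPKM, with limma-voom or with the replicate number as a block, and 12 with a common sum of FPKM. It ranged from 0 to 14 when 1 dog was left out, with 14 without CPP-Se replicate 2 and 1 without CPP-Se replicate 1.

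The 18 genes with an unadjusted p under 0.05 became 10 of the 37 with a mean of at least 10 FPKM and 11 of the 41 with at least 5 FPKM in each dog, and 12 of the 53 with at least 5 FPKM in both groups, where fewer genes were counted (27%, 26.8% and 22.6%, against 21.7%, 19.8% and 18.7% of all genes at that level). They ranged from 15 to 23 over the dogs left out (21.7% to 33.3%, against 9.86% to 16.7% of all genes tested). The 25 genes whose groups did not overlap became 16 with a mean of at least 10 FPKM (43.2%, against 28.5%), 13 with a common sum of FPKM (18.8%, against 13.8%), and 27 to 36 over the dogs left out, where fewer dogs have to be apart (39.1% to 52.2%, against 29.7% to 36.3%). For the nearest protein-coding genes, the 17 became 7 with a common sum and 11 to 19 over the dogs left out (21.2% to 36.5%). The causes were not tested beyond what is said here.

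Over these settings the sign of the log2 fold change turned at least once in 22 of the 69 lncRNA genes, with main values of up to 0.54 in size, and in 12 of the 52 nearest protein-coding genes tested, up to 0.22. Of the lncRNA genes named, it turned in ENSCAFG00000046221, at 0.038 with a common sum, 0.030 with a common sum without hemoglobin genes and 0.14 without CPP-Se replicate 2, down to -0.29 over the dogs left out. It turned in ENSCAFG00000013083, the BANF1 gene (-0.16 without control replicate 3 and -0.15 without CPP-Se replicate 1, up to 0.36 over the dogs left out), and in ENSCAFG00000009228 (-0.02 without CPP-Se replicate 2 and -0.16 without CPP-Se replicate 3, up to 0.36 over the dogs left out). Leaving out CPP-Se replicate 3 also turned ENSCAFG00000047367 to -0.15 and ENSCAFG00000048526 to -0.22, while over the other dogs left out they reached 1.02 and 0.31. ENSCAFG00000034030 kept its sign, at -0.82 to -0.18 over the dogs left out. Of those named outside the rule, it turned in ENSCAFG00000043834 (-0.0055 with a common median, -0.21 to 0.30 over the dogs left out), ENSCAFG00000046870 (0.064 with a common sum, 0.050 with a common sum without hemoglobin genes, -0.23 to 0.19 over the dogs left out) and ENSCAFG00000048837 (-1.36 to 0.021 over the dogs left out). YPEL5, given above only as a symbol, had a log2 fold change of -0.40, which was 0.062 without CPP-Se replicate 2.

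The sources used here give no sign that dogs sharing a number across the groups belong together. The deviations of same-numbered dogs from their group means correlated at 0.016, -0.090 and -0.043 across genes, so the numbers were not taken as pairs. With the replicate number as a block, an unadjusted p under 0.05 was reached by 20 of the 69 genes (29%, against 13.8% of all genes tested) and 0 were called. Precision is limited by 3 dogs per group and, for 9 of the genes, by fewer than 50 reads per dog.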
